A study of Mus musculus with 12 samples.

Results

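Interferon-stimulated genes were followed in the olfactory epithelium of mice after a treatment meant to deplete macrophages and after removal of the olfactory bulbs. The module was given as a list of 39 gene symbols, matched to the array's probe sets by platform gene symbol or an older alias, without use of any measured value. Of the 39 genes, 37 had at least 1 probe set of their own (64 probe sets in all), and 35 passed the filter on low signal and were tested among 13628 genes. Mx2 (7.40 to 64.9 signal units over the 12 arrays) and Oas3 (18.8 to 87.4) did not pass that filter. No probe set was named for Ifi44 here, and Isg15 appeared only on a probe set that the platform also assigns to Gm9706, so neither gene was given a value of its own. The shared probe set read 444, 201 and 223 signal units in Lip-O sham, 308, 180.0 and 428 in Lip-C sham, 373, 319 and 405 in Lip-O OBX, and 251.1, 246 and 212 in Lip-C OBX.

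All mice were wild-type male C57BL/6J, 6 weeks old, and every group was anaesthetised and received liposomes by 2 routes. Lip-C mice received liposomes loaded with clodronate, which kills phagocytic cells that take them up. They were given in 50 µl intranasally on 3 successive days and in 200 µl intravenously on day 1 and day 3 of that course. Lip-O mice received empty liposomes by the same routes, volumes and days. On the second day the olfactory bulbs were removed on both sides (OBX), which cuts the axons of olfactory sensory neurons, or a sham operation was done, and the microdissected epithelium was taken after 48 h. Each of the 4 groups (Lip-O sham, Lip-C sham, Lip-O OBX, Lip-C OBX) had 3 one-colour Affymetrix arrays, called biological replicates in the titles. The comparisons ask how the bulb operation, the macrophage-depleting treatment and their combination change expression in this tissue. No group without liposomes or without an operation was analysed here, and the labels do not say whether an array holds RNA of 1 mouse or of several. The p-values therefore describe the spread between these samples.

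Interferons are secreted proteins that alert cells to infection or tissue damage. Type I interferons signal through the kinases Jak1 and Tyk2 to a complex that holds Stat2 and Irf9 and binds the interferon-stimulated response element (ISRE) in promoters. Interferon gamma signals through Jak1 and Jak2 to genes with a gamma-activated sequence (GAS). Many target genes encode antiviral proteins, sensors of foreign nucleic acid, GTPases that attack intracellular microbes, and parts of the machinery that presents peptides on class I molecules. Macrophages and plasmacytoid dendritic cells are well-known sources and targets of interferon, but most cell types respond to it.

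The promoters of 15 members carry the ISRE core, and those of the genes on which the results turn are printed here as the 250 bases before the RefSeq transcription start, 5′ to 3′ on the gene's strand (build GRCm38). Capitals mark matches to the ISRE core GAAANNGAAA or its other strand TTTCNNTTTC. Ifit1, Ifit2 and Ifit3 (all on the plus strand) are neighbours in 1 cluster, of which Ifit1 and Ifit2 fell after OBX and Ifit3 did not pass the test. Gbp2 (plus strand) had the widest spread between replicates, Oas1a (minus strand) was lower in each Lip-C OBX array than in any Lip-O OBX array, and Trim25 (plus strand) was higher after OBX.
Ifit1 (chr19:34640639-34640888): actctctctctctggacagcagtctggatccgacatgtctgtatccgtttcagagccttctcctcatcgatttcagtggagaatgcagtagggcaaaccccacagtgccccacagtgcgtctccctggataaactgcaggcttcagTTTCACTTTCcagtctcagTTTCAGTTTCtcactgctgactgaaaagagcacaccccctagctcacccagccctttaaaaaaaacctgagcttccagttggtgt
Ifit2, upstream start (chr19:34550444-34550693): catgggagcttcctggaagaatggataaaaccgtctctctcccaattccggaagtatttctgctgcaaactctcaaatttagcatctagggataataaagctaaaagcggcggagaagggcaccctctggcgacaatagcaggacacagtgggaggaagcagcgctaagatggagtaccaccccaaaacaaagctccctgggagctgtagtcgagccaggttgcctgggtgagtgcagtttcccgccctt
Ifit2, downstream start (chr19:34550838-34551087): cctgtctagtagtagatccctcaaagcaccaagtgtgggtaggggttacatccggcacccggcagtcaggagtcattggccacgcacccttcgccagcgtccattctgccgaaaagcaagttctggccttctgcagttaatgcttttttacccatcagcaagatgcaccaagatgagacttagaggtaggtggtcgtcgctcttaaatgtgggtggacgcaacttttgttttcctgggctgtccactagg
Ifit3 (chr19:34583279-34583528): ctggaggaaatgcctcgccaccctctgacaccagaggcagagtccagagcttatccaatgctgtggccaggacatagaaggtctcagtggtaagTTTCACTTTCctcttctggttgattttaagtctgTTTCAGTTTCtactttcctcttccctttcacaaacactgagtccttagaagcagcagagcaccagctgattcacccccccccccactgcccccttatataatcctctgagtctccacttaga
Gbp2 (chr3:142620413-142620662): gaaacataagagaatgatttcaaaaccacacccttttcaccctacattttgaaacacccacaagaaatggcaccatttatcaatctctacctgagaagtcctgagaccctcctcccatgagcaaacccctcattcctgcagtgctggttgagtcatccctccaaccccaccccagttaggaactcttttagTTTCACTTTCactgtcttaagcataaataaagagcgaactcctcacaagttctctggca
Oas1a (chr5:120907526-120907775): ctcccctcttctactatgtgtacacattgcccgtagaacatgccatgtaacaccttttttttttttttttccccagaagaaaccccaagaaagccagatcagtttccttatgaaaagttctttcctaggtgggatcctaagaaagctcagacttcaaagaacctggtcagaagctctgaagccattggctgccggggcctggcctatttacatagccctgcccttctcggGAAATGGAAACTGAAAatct
Trim25 (chr11:88999153-88999402): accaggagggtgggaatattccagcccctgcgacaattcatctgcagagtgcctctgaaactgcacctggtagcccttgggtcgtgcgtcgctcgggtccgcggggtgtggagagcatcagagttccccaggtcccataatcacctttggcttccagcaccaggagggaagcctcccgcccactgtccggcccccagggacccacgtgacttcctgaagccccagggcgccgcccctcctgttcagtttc

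Ifit1 held 2 separate matches that begin 104 and 85 bases before the start, and Ifit3 held 2 that begin 156 and 122 bases before it. Gbp2 held 1 at 59 bases before the start. Oas1a held 2 that overlap, sharing a GAAA, at 20 and 14 bases before the start. Neither window of Ifit2 nor that of Trim25 held these letters. In RefSeq windows of 300 bases (250 before to 50 after the start), which were listed for 30 of the 39 members, 15 members (50.0%) held the ISRE core, as did 3.99% of 27025 genes. The GAS motif TTCNNNGAA, which reads the same on both strands, was present in 10 of the 30 (33.3%) and in 9.55% of all genes. The 9 members without a listed window were Mx1, Mx2, Oas2, Usp18, Dhx58, Zbp1, Iigp1, Rtp4 and Parp14.

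The deposited signals are on a linear scale on which the mean of every array, after trimming 2%, is 500, and array medians ran from 117.5 to 134.2. Values were compared as log2(signal + 16), so that a change of 1 is close to a doubling for bright genes and understates the change of dim ones. The tissue label fits its markers on all arrays: Omp of mature olfactory sensory neurons ran from 6768 to 18213 and Cyp2g1 of sustentacular cells from 14210.4 to 17527. In whole tissue, fewer cells of a type and less RNA per cell cannot be told apart.

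Interferon-stimulated genes varied far more between replicates than most genes did. The median residual SD of the 35 tested members was 0.45 on the log2 scale, against 0.16 for all 13628 genes, and 34 of the 35 lay above that all-gene median. The inducible GTPases had the widest spread (median 0.80), with Gbp2, a guanylate-binding protein, at 1.27. Ddx58, the RNA sensor RIG-I, had the narrowest at 0.11.

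One control array stood apart, and it belongs to the reference group of several comparisons. Lip-O sham replicate 1 was the highest of all 12 arrays for 16 of the 35 members, including all 5 inducible GTPases, and exceeded the gene's own mean over the arrays for 34 of 35. Its median deviation from those means was 0.62 on the log2 scale, against -0.23 and -0.44 for Lip-O sham replicates 2 and 3. Lip-O OBX replicate 1 was also high, with 32 of 35 members above their mean, a median deviation of 0.58 and the highest value for 9 members. At the other end, Lip-C sham replicate 2 was the lowest array for 17 members (median deviation -0.43), and Lip-C OBX replicate 3 had only 2 of 35 members above their mean.

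**Figure D1:**
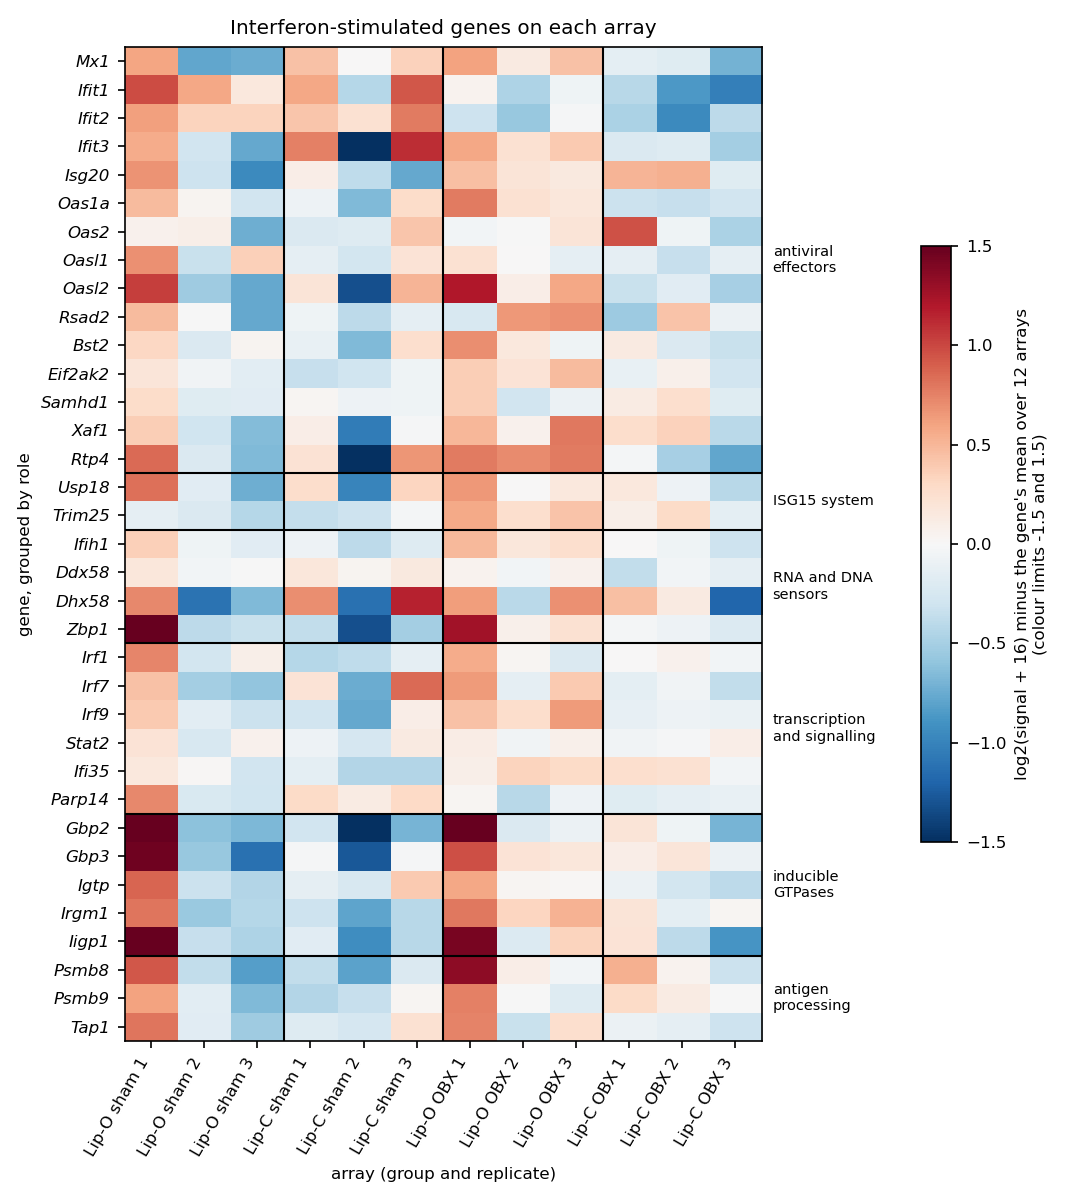
Deviation of log2(signal + 16) from the gene's mean over the 12 arrays, for the 35 tested members (rows, by role) on each array (columns, by group and replicate); red is above and blue below the mean, with colours limited at -1.5 and 1.5. Lip-O sham 1 and Lip-O OBX 1 are red for 34 and 32 of the 35 genes, and Lip-C sham 2 is the lowest array for 17.

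The spread was clearest in the GTPases that act on vacuoles and membranes of intracellular microbes. Gbp2 read 2448, 178 and 169 signal units on the 3 Lip-O sham arrays, 228, 78.0 and 166 in Lip-C sham, 986, 239 and 262 in Lip-O OBX, and 322, 268 and 166 in Lip-C OBX. Iigp1, an immunity-related GTPase, read 1506, 319 and 293 in Lip-O sham, 364, 208 and 305 in Lip-C sham, 1126, 355 and 523 in Lip-O OBX, and 476, 310.0 and 215 in Lip-C OBX. Both genes were high on Lip-O sham 1 and Lip-O OBX 1 and within a narrower range on the other 10 arrays, so that the groups overlapped in every comparison. Gbp3 read 457 on Lip-O sham 1 and 55.1 to 319 on the other arrays. The sensor of Z-form nucleic acid Zbp1 read 278 there and 21.1 to 205 elsewhere.

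The same array was high for other inflammatory genes outside the module. Cxcl10, an interferon-induced chemokine, read 1392 there and 37.2 to 212 on the other arrays. Cd14, a myeloid receptor for bacterial lipopolysaccharide, read 4955 there and 490 to 2007 elsewhere. Icam1, an adhesion molecule, read 952 there and 84.4 to 508 elsewhere, and Socs3, a feedback inhibitor of cytokine signalling, read 2043 there and 256 to 1152 elsewhere. Cxcl9, a chemokine induced by interferon gamma, did not pass the filter, and the brighter of its probe sets read 871 on that array, 290 on Lip-O OBX 1 and 4.40 to 28.8 on the other 10. Ifng itself read 3.7 there and at most 22 on any array. What sets this array apart was not tested, and the results that it moves are also given without it.

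**Figure D2:**
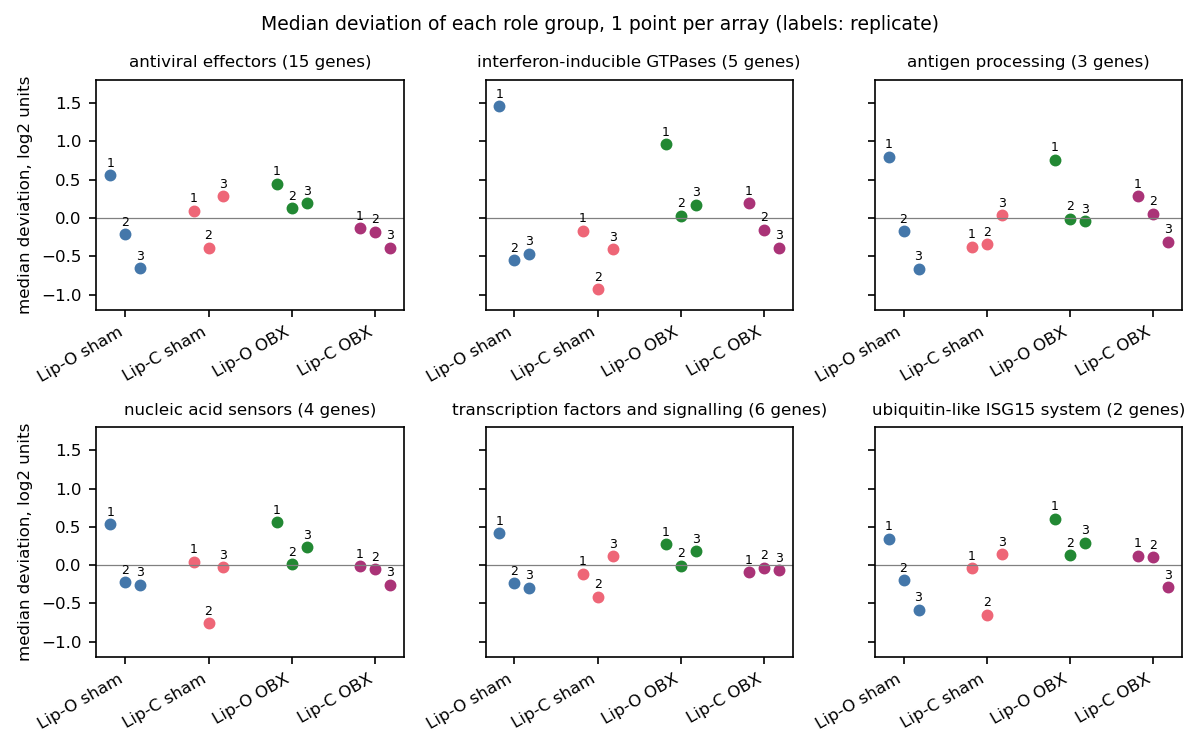
Median deviation from the gene mean (log2 units, vertical axis) of the members in each of 6 role groups, with 1 point per array, labelled by replicate, in the 4 groups (horizontal axis). The inducible GTPases reach 1.46 on Lip-O sham 1 and 0.96 on Lip-O OBX 1, while Lip-O sham 2 and 3 lie at -0.55 and -0.47.

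After OBX Ifit1 and Ifit2 fell and Trim25 and Ifi35 rose, while most of the module did not pass the threshold (limma, adjusted p under 0.05 over all genes). In Lip-O mice 1 of 35 members rose (10.7% of all genes did) and 1 fell (8.89%), that is 2 of 35 against 19.6% in either direction. In Lip-C mice 1 rose (10.3% of all genes) and 2 fell (8.86%), that is 3 of 35 against 19.2%. Over both liposome treatments 4 of 35 members changed, 2 in each direction, against 32.7% of all genes. The called share of the module was thus below the background in each of these comparisons. Members varied more between replicates (median residual SD 0.45 against 0.16), so a change of a given size is harder to call, here and with Lip-C. The lower share therefore does not show a smaller response.

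The proteins of the IFIT family bind viral RNA that lacks host-type caps and block its translation. Ifit2 read 529, 431 and 431 signal units in Lip-O sham and 271, 224 and 334 in Lip-O OBX. It read 459, 402 and 595 in Lip-C sham and 239, 168 and 255 in Lip-C OBX. All 6 OBX arrays lay below all 6 sham arrays, with the lowest sham value at 402 and the highest OBX value at 334. The change was -0.72 ± 0.19 (standard error) in Lip-O mice (limma, adjusted p = 0.0259) and -1.09 ± 0.19 in Lip-C mice (limma, adjusted p = 0.00731). In Lip-O mice the adjusted p rose to between 0.0507 and 0.0828 without any 1 of Lip-O sham replicates 1, 2 and 3 and Lip-O OBX replicates 1 and 2, and to 0.162 without both Lip-O arrays numbered 1. In Lip-C mice it stayed at or below 0.0293 in every fit that left out 1 array.

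Ifit1 read 1099, 826 and 613 in Lip-O sham and 569, 395 and 523 in Lip-O OBX, and 827, 405 and 1063 in Lip-C sham against 406, 296 and 261 in Lip-C OBX. OBX arrays were lower without overlap in Lip-O mice, whereas in Lip-C mice the lowest sham array (405) lay just under the highest OBX array (406). The change in Lip-C mice was -1.13 ± 0.33 (limma, adjusted p = 0.0383) and that in Lip-O mice -0.73 ± 0.33 (limma, adjusted p = 0.147), and the interaction, which tests their difference, was -0.40 ± 0.47 (limma, adjusted p = 0.693). The call in Lip-C mice was lost without any 1 of Lip-O sham replicate 2, Lip-C sham replicates 1 and 3 and Lip-C OBX replicates 1, 2 and 3 (highest adjusted p = 0.126). It was also lost with no filter (0.0629) and when only the groups compared were fitted (0.0729). Over both liposome treatments Ifit1 changed by -0.93 ± 0.23 (limma, adjusted p = 0.0126).

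Ifit3, which stabilises the IFIT complex and neighbours the other two in the genome, did not pass the test. It read 571, 309 and 218 in Lip-O sham and 580.3, 449 and 506 in Lip-O OBX, and 655, 110.2 and 842 in Lip-C sham against 325, 333 and 264 in Lip-C OBX. The groups overlapped within both liposome treatments, because single sham arrays were very high or very low. The difference was 0.56 ± 0.59 in Lip-O mice and -0.38 ± 0.59 in Lip-C mice. Without Lip-C sham replicate 2, the array that read 110.2, Ifit3 was called lower in Lip-C mice as well, at -1.24 ± 0.32 (limma, adjusted p = 0.0463).

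Trim25, a ubiquitin ligase that activates RIG-I and also attaches ISG15, was the member that rose in Lip-O mice. It read 885, 837 and 722 in Lip-O sham and 1448, 1162 and 1318 in Lip-O OBX, with every OBX array above every sham array. The change was 0.67 ± 0.14 (limma, adjusted p = 0.00877). Its Lip-C arrays read 760, 783 and 952 in sham and 1041, 1196 and 877 in OBX, where the groups overlapped and the change was 0.31 ± 0.14 (limma, adjusted p = 0.135). A second Trim25 probe set gave 0.66 ± 0.16 in Lip-O mice and another gave -0.10 ± 0.19, so 1 of 3 did not show the rise. Without both Lip-O arrays numbered 1 the adjusted p was 0.0560.

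Ifi35, an interferon-induced leucine zipper protein, rose in Lip-C mice. It read 2669, 2171 and 2177 in Lip-C sham and 3520.2, 3470 and 2880.1 in Lip-C OBX, and 3299, 3007 and 2424 in Lip-O sham against 3137, 3751 and 3618 in Lip-O OBX. The Lip-C groups did not overlap, whereas in Lip-O mice the highest sham array exceeded the lowest OBX array. The change was 0.49 ± 0.14 in Lip-C mice (limma, adjusted p = 0.0335) and 0.27 ± 0.14 in Lip-O mice (limma, adjusted p = 0.190). The 2 other probe sets of Ifi35 gave 0.48 ± 0.17 and 0.16 ± 0.14 in Lip-C mice. The call was lost without Lip-C sham replicate 2 or 3 or Lip-C OBX replicate 1 or 2 (highest adjusted p = 0.116), with array median centring (0.0914), with no filter (0.0568) and when its probe sets were averaged (0.0702). That average also ended the call over both treatments (0.38 ± 0.10, limma adjusted p = 0.0135, against 0.23 and 0.0795).

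**Figure D3:**
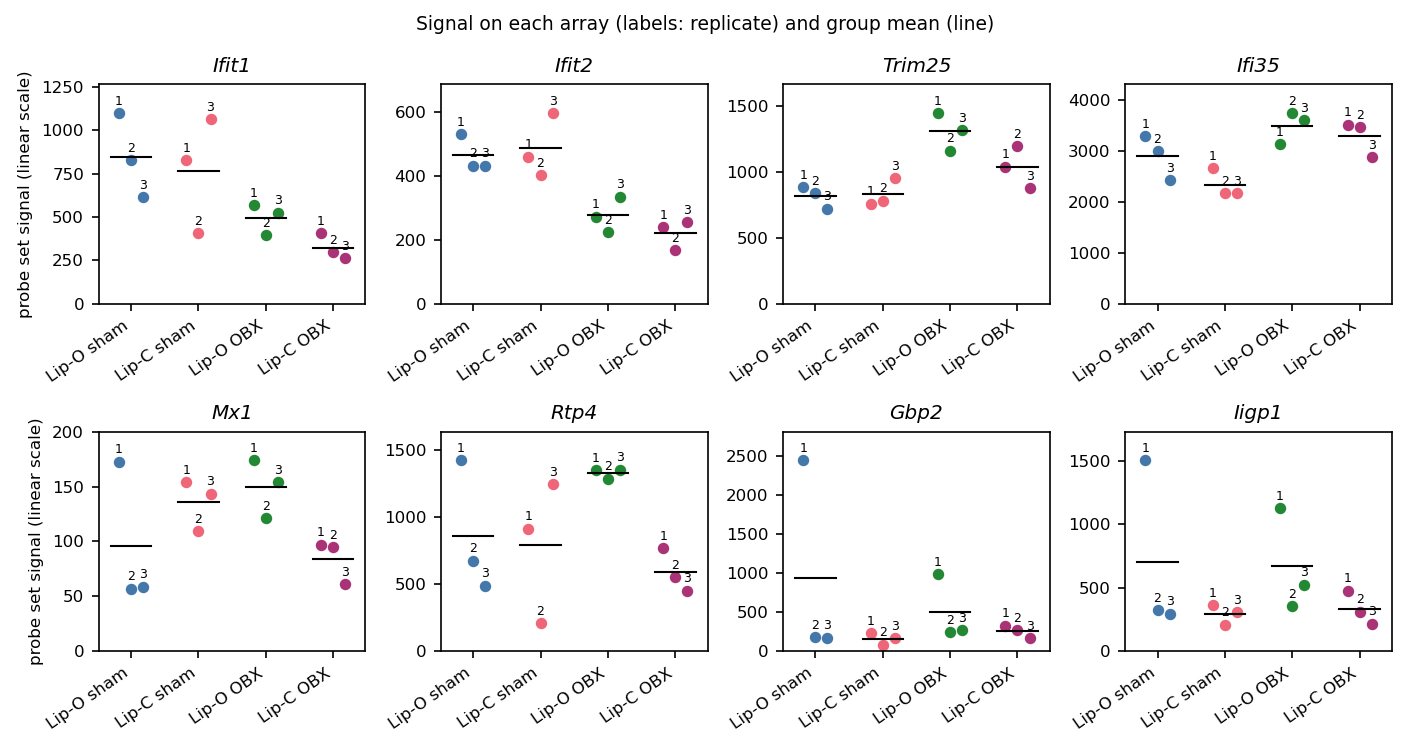
Probe set signal (linear vertical axis from 0) on each of the 12 arrays for 8 members, with the replicate number at each point and the group mean as a line; the 4 groups stand on the horizontal axis. Ifit2 is at most 334 on the OBX arrays and at least 402 on the sham arrays, while Gbp2 and Iigp1 are highest on Lip-O sham 1 and Lip-O OBX 1.

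Among the other antiviral effectors, those that block virus entry, translation or replication, no further gene passed after OBX. In Lip-O mice 12 of the 15 tested effectors had positive changes and the median was 0.36, and in Lip-C mice 7 of 15 did, with a median of -0.12. Eif2ak2, the RNA-dependent kinase PKR, read 296, 249 and 231 in Lip-O sham and 338, 301 and 367 in Lip-O OBX, which did not overlap (0.36 ± 0.13, limma adjusted p = 0.0739). Rtp4, a chaperone for receptors that is induced by interferon, read 1421, 672 and 486 in Lip-O sham and 1347, 1286 and 1352 in Lip-O OBX. Its OBX arrays were nearly equal and its sham arrays ran from below to above them (0.76 ± 0.57, limma adjusted p = 0.378). The difference was 1.19 without Lip-O sham replicate 1 and 0.44 without Lip-O sham replicate 3. Isg20, an exonuclease that degrades viral RNA, gave 0.46 ± 0.37 in Lip-O mice and 0.64 ± 0.37 in Lip-C mice. Bst2, which tethers budding virions, gave 0.22 ± 0.26 and 0.041 ± 0.26. Rsad2, which encodes viperin, read 492 to 1190.5 in Lip-O sham and 716 to 1378 in Lip-O OBX (0.46 ± 0.35), and 647 to 812 in Lip-C sham against 580 to 1154 in Lip-C OBX (0.13 ± 0.35). Of the oligoadenylate synthetase family, Oasl2 gave 0.72 ± 0.54 in Lip-O mice and -0.13 ± 0.54 in Lip-C mice. Oas2 (46.0 to 184 over all arrays) and Oasl1 (78.0 to 176) were dim. Samhd1, which depletes nucleotides that viruses need, ran from 348 to 555 over all arrays, with changes of 0.026 ± 0.18 and 0.10 ± 0.18. Xaf1, a partner of an apoptosis inhibitor, gave 0.64 ± 0.35 and 0.39 ± 0.35. For Isg20, Bst2, Rsad2, Oas2, Oasl1, Oasl2, Samhd1 and Xaf1 the sham and OBX arrays overlapped in both treatments.

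The nucleic acid sensors did not pass in either OBX comparison. Ddx58 read 1198, 1093 and 1175 in Lip-C sham and 821, 1029.6 and 962 in Lip-C OBX, lower without overlap (-0.30 ± 0.10, limma adjusted p = 0.0509). It read 1199, 1035 and 1056 in Lip-O sham and 1106, 1029 and 1107 in Lip-O OBX, where the groups overlapped (-0.018 ± 0.096). The change in Lip-C mice passed with array median centring (0.0374), a pseudocount of 64 (0.0471), the stricter filter (0.0355) and array weights (0.0405). It also passed without Lip-O sham replicate 1 (limma, adjusted p = 0.0493). A second Ddx58 probe set pointed the other way, at 0.39 ± 0.19 in Lip-C mice and 0.37 ± 0.14 over both treatments (unadjusted p = 0.0205), so the direction for this gene depends on the probe set. Zbp1 was dim and is given by signal: 55.6, 21.1 and 48.8 in Lip-C sham and 74.3, 71.4 and 63.9 in Lip-C OBX, without overlap. Dhx58, a regulator of the RIG-I family, was dim on every array (7.70 to 105).

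Of the transcription factors, Irf1, Irf7, Irf9 and Stat2 did not pass after OBX. Irf9, the DNA-binding part of the type I complex, read 849, 574 and 511 in Lip-O sham and 878, 772 and 1006 in Lip-O OBX (0.47 ± 0.22, limma adjusted p = 0.161). Irf1, which drives class I genes and GTPases, read 483, 501 and 596 in Lip-C sham and 657, 684 and 635 in Lip-C OBX, higher without overlap (0.32 ± 0.24, limma adjusted p = 0.375). The Irf9 groups overlapped and the Irf1 groups in Lip-C mice did not. On the probe set that stood for the gene, Stat2 was nearly level on all arrays (187 to 264), with differences of 0.039 ± 0.13 and 0.073 ± 0.13. A second Stat2 probe set gave 0.38 ± 0.16 in Lip-O mice (limma, adjusted p = 0.132) and -0.12 ± 0.16 in Lip-C mice. Parp14, an ADP-ribosyltransferase, read 650.0, 582 and 658 in Lip-C sham and 467, 480.4 and 491 in Lip-C OBX, lower without overlap (-0.38 ± 0.23, limma adjusted p = 0.258). A second Parp14 probe set did not show this fall, at -0.0081 ± 0.28 in Lip-C mice. It gave -0.86 ± 0.28 in Lip-O mice (limma, adjusted p = 0.0600).

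None of the 5 GTPases and 3 antigen processing genes passed after OBX, and changes were positive for 4 of 5 GTPases in each treatment and for 3 and 2 of the 3 antigen processing genes. Irgm1, which controls the other immunity-related GTPases, read 378, 267 and 352 in Lip-C sham and 542, 424 and 481 in Lip-C OBX, higher without overlap (0.52 ± 0.30, limma adjusted p = 0.246). It read 835, 317 and 347 in Lip-O sham and 829.8, 593 and 683 in Lip-O OBX (0.60 ± 0.30, limma adjusted p = 0.192), where replicate 1 alone made the groups overlap. Psmb8, a catalytic subunit of the immunoproteasome, gave 0.56 ± 0.46 in Lip-O mice and 0.55 ± 0.46 in Lip-C mice. The value in Lip-O mice was 0.12 without Lip-O OBX replicate 1 and 1.06 without Lip-O sham replicate 1, and that in Lip-C mice was 0.33 without Lip-C OBX replicate 1. Its partner Psmb9 gave 0.25 ± 0.31 and 0.38 ± 0.31, and the peptide transporter Tap1 by 0.19 ± 0.33 and -0.11 ± 0.33.

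Across the module the median change after OBX was 0.27 in Lip-O mice and 0.10 in Lip-C mice, against 0.05 and 0.04 for all genes. Changes were negative for 7 of 35 members in Lip-O mice (43.0% of all genes) and 14 of 35 in Lip-C mice (44.0%). Groups did not overlap for 2 members higher (21.6% of all genes) and 2 lower (16.2%) in Lip-O mice. The counts in Lip-C mice were 4 higher (23.0%) and 4 lower (17.1%). These shares lie near or under the background, and the wider spread of the members makes groups without overlap less likely.

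**Figure D4:**
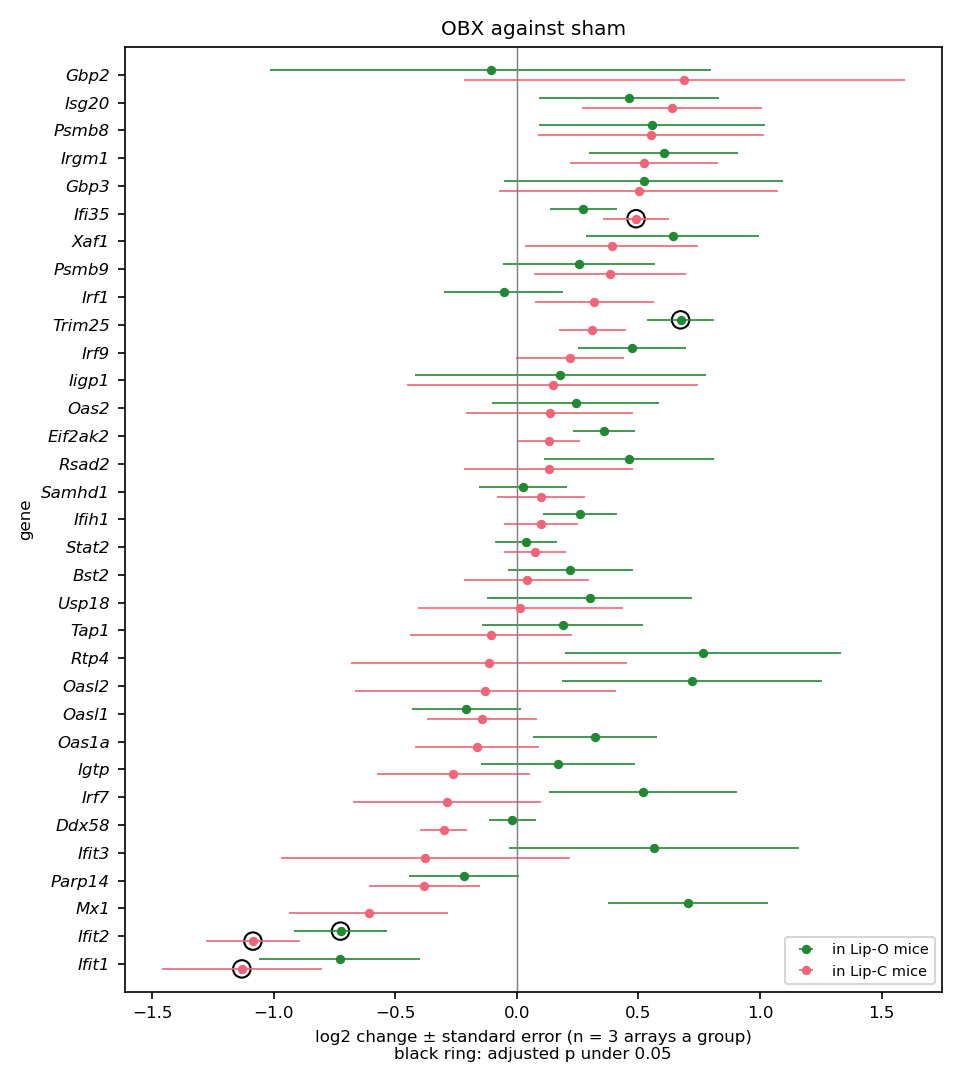
Log2 change after OBX ± standard error (horizontal axis) of 33 members, without the dim Dhx58 and Zbp1, in Lip-O and Lip-C mice (n = 3 arrays a group); black rings mark adjusted p under 0.05. Ifit2 is ringed in both, Trim25 in Lip-O mice and Ifit1 and Ifi35 in Lip-C mice.

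Both OBX comparisons depended on Lip-O sham replicate 1. Without it the median in Lip-O mice of the module was 0.68 in place of 0.27, negative changes numbered 2 in place of 7, and 3 members were called higher (Trim25, Mx1 and Irgm1) and none lower, against 13.6% of all genes in that fit. Mx1 then changed by 1.16 ± 0.20 (limma, adjusted p = 0.00919), and Irgm1 by 1.03 ± 0.18 (limma, adjusted p = 0.00839). Without any 1 of the other arrays, their adjusted p in Lip-O mice was at least 0.158 and 0.197 respectively. In Lip-C mice the same fit left the changes as they were, gave smaller standard errors and called 7 members in place of 3 (18.6% of all genes). Irgm1 was higher there (0.52 ± 0.16, limma adjusted p = 0.0456), and Mx1 (-0.61 ± 0.18, 0.0438), Parp14 (-0.38 ± 0.11, 0.0438) and Ddx58 (-0.30 ± 0.093, 0.0493) were lower. Second probe sets of Parp14 and Ddx58 did not show these falls in the fit of all arrays (-0.0081 ± 0.28 and 0.39 ± 0.19). Over both liposome treatments 11 of 35 members were called without that array, 9 higher and 2 lower, against 28.3% of all genes in that fit. Without Lip-O sham replicate 3 the Lip-O median was 0.082 with 16 negative changes, and without Lip-O OBX replicate 1 the median over both treatments was 0.048.

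Mx1 itself showed how the reference array entered. It read 173, 56.7 and 58.5 in Lip-O sham, 154, 109 and 143 in Lip-C sham, 174, 121 and 154 in Lip-O OBX, and 97.0, 94.4 and 60.8 in Lip-C OBX. Lip-O sham replicate 1 lay with the Lip-O OBX arrays, and the other two control arrays lay below all of them. The Lip-C OBX arrays lay below all Lip-C sham and all Lip-O OBX arrays. The differences were 0.70 ± 0.33 after OBX in Lip-O mice (limma, adjusted p = 0.159) and -0.61 ± 0.33 in Lip-C mice (limma, adjusted p = 0.210).

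Lip-C changed no member of the module past the threshold, in sham or in OBX mice. In sham mice 0 of 35 members were called (2.10% of all genes) and 1 had an unadjusted p under 0.05 (21.9% of all genes). In OBX mice 0 of 35 were called (0.345%) and 6 had an unadjusted p under 0.05, all lower (12.7% of all genes in either direction). Over both operations 0 of 35 were called (1.59%), with 6 at an unadjusted p under 0.05, all lower (16.8%).

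In OBX mice most members read lower with Lip-C than with Lip-O. The median change was -0.40 against 0.01 for all genes, and 31 of 35 changes were negative, against 48.7% of all genes. Members rose and fell together on single arrays, so counts of members are not independent, here and in the other comparisons. Within groups the module's median deviation varied between arrays with an SD of 0.35, close to the size of this change. For 12 of 35 members every Lip-C OBX array lay below every Lip-O OBX array, against 7.81% of all genes, and none was higher without overlap. These were 7 antiviral effectors (Mx1, Ifit3, Oas1a, Oasl1, Oasl2, Eif2ak2 and Rtp4), the sensors Ifih1 and Zbp1, Irf9, and the GTPases Igtp and Irgm1. An ISRE core was found in the promoter windows of 6 of the 9 that had one, and in 7 of 18 among the other tested members.

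Rtp4 had the largest difference, 1347, 1286 and 1352 in Lip-O OBX against 767, 549 and 449 in Lip-C OBX (-1.19 ± 0.57, limma adjusted p = 0.417). Every Lip-C array was lower, and the sham arrays of this gene ran from 208 to 1421. Eif2ak2 had the smallest p, at 338, 301 and 367 in Lip-O OBX against 239, 274 and 208 in Lip-C OBX (-0.46 ± 0.13, limma adjusted p = 0.173). Oas1a, which makes the 2-5A messenger that activates RNase L, read 711, 481 and 461 against 322, 318 and 331 (-0.71 ± 0.25, limma adjusted p = 0.277). The 3 Lip-C values of Oas1a were nearly equal.

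Ifih1, the long-RNA sensor MDA5, read 1072, 859 and 911 in Lip-O OBX and 769, 729 and 614 in Lip-C OBX (-0.42 ± 0.15, limma adjusted p = 0.277). Irf9 read 878, 772 and 1006 against 589, 609 and 601 (-0.54 ± 0.22, limma adjusted p = 0.341). Both were lower on every Lip-C OBX array. Trim25 read 1448, 1162 and 1318 against 1041, 1196 and 877, where 1 Lip-C array exceeded the lowest Lip-O array (-0.34 ± 0.14, limma adjusted p = 0.343). Zbp1 read 205, 81.2 and 91.6 against 74.3, 71.4 and 63.9. Mx1 differed by -0.74 ± 0.33 (limma, adjusted p = 0.387), Iigp1 by -0.87 ± 0.60, Usp18, the protease that removes ISG15, by -0.39 ± 0.42, and Tap1 by -0.40 ± 0.33. Without Lip-O OBX replicate 1 these became -0.42 for Iigp1, -0.20 for Usp18 and -0.14 for Tap1, and without Lip-O OBX replicate 2 Tap1 was -0.68. Trim25 was -0.22 without Lip-C OBX replicate 3.

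The median in OBX mice was smaller without the high array and kept its sign. Without Lip-O OBX replicate 1 the median was -0.26 with 28 of 35 negative changes, and over all fits that left out 1 array it ran from -0.53 to -0.26 with 28 to 34 negative. No member was called in any of them.

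In sham mice the direction depended on 1 array. The median change with Lip-C was -0.15 against 0.00 for all genes, and 26 of 35 changes were negative (49.4% of all genes). No member's groups were apart, 0 of 35 against 13.5% of all genes lower without overlap. Without Lip-O sham replicate 1 the median was 0.14 and 13 changes were negative, so the direction of the module turned, and without Lip-O sham replicate 3 it was -0.39 with 30 negative.

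Among single genes in sham mice, Ifi35 read 3299, 3007 and 2424 in Lip-O sham and 2669, 2171 and 2177 in Lip-C sham (-0.31 ± 0.14, limma adjusted p = 0.222). Irf1 read 1101, 537 and 695 against 483, 501 and 596 (-0.49 ± 0.24, limma adjusted p = 0.272). Both had lower means with Lip-C, with overlap between the groups, and Irf1 became -0.21 without Lip-O sham replicate 1. A second Ifi35 probe set gave -0.54 ± 0.17 (limma, adjusted p = 0.0975). The dim Zbp1 read 278, 54.2 and 57 against 55.6, 21.1 and 48.8. Usp18 differed by -0.11 ± 0.42 and Psmb8 by -0.38 ± 0.46, and both turned positive (0.32 and 0.13) without Lip-O sham replicate 1. Eif2ak2 read 296, 249 and 231 against 199, 208 and 246 (-0.23 ± 0.13, limma adjusted p = 0.330), which became -0.13 without that array, and Gbp2 differed by -1.47 ± 0.91 (limma, adjusted p = 0.380), which became -0.24 without Lip-O sham replicate 1. Mx1 had a higher mean with Lip-C, by 0.58 ± 0.33 (limma, adjusted p = 0.338), and by 1.03 without that array. Irf7, the main amplifier of type I interferon, differed by 0.32 ± 0.39, with Lip-C sham arrays at 304, 149 and 481.

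**Figure D5:**
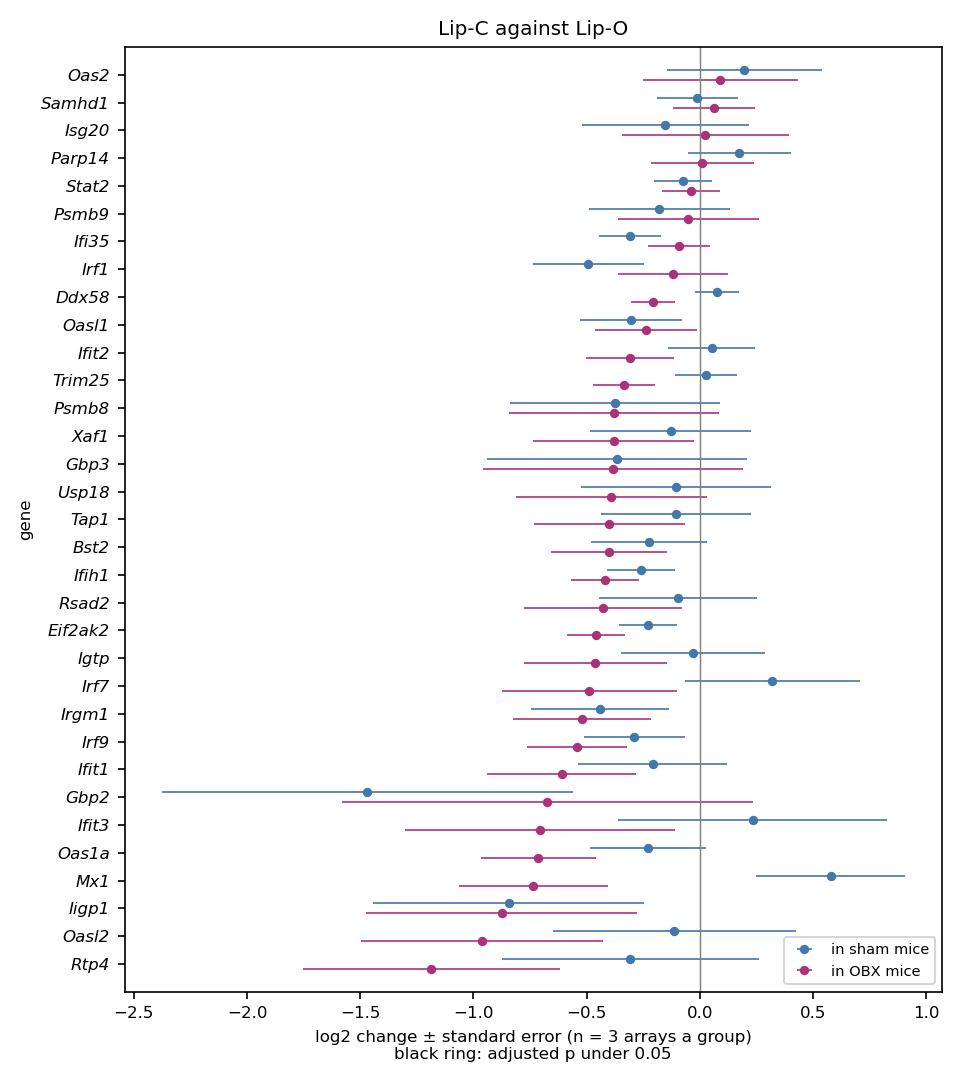
Log2 difference of Lip-C against Lip-O ± standard error (horizontal axis) of 33 members, without the dim Dhx58 and Zbp1, in sham and OBX mice (n = 3 arrays a group). No member passed adjusted p 0.05, and in OBX mice most points lie left of 0, with Rtp4 (-1.19) farthest.

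No member responded differently to OBX in Lip-C and Lip-O mice by the test of that difference. The interaction called 0 of 35 members and 0.00% of all genes by limma, with 1 member (Mx1) at an unadjusted p under 0.05, against 17.6% of all genes. The interaction of Mx1 was -1.31 ± 0.46 (limma, unadjusted p = 0.0169, adjusted p = 0.186), from 0.70 in Lip-O mice to -0.61 in Lip-C mice. Among the 5 members with the smallest p, Ddx58 followed at -0.28 ± 0.14, Trim25 at -0.36 ± 0.19, Irf7 at -0.81 ± 0.55 and Oas1a at -0.48 ± 0.36, with adjusted p of 0.308 to 0.515 (limma). The median over the module was -0.23 with 26 of 35 negative, against 50.3% of all genes. It ran from -0.49 without Lip-O sham replicate 1 to -0.012 without Lip-O sham replicate 3.

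The transcripts of the interferons themselves gave little signal. Of 12 interferon genes listed, Ifna2 alone was tested (56.8 to 185), and it passed in no comparison. Ifnb1 read 23.2 to 72.9 and Ifng 1.8 to 22, both under the filter. Of 9 tested receptor and kinase genes none passed in the 4 comparisons between groups. Over both liposome treatments Ifnlr1, the receptor chain for interferon lambda, fell after OBX (-0.48 ± 0.13, limma adjusted p = 0.0199), where 32.7% of all genes were called.

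Of 14 tested genes that sense microbes and induce interferon, Irf8, a factor of macrophages and dendritic cells, rose after OBX in Lip-C mice. It read 154, 133 and 197 in Lip-C sham and 379, 328 and 232 in Lip-C OBX, without overlap (0.88 ± 0.20, limma adjusted p = 0.0169). In that comparison 19.2% of all genes were called. Over both treatments Irf8, Irf5 (0.34 ± 0.12) and Ticam1, the adaptor of Tlr3 (0.53 ± 0.14), rose and none of the 14 fell. The share called among all genes was 32.7% there, so these rises do not set the list apart. Among 7 tested negative regulators, Irf2, which competes with Irf1 for its sites, rose after OBX in both treatments (0.30 ± 0.09 and 0.28 ± 0.09, limma adjusted p = 0.0354 and 0.0486).

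A further 34 tested interferon-stimulated genes lay outside the module. After OBX 2 rose and 2 fell in Lip-O mice (19.6% of all genes were called), and 2 rose and 1 fell in Lip-C mice (19.2%). Over both liposome treatments 9 rose and 2 fell (32.7%). Ifi30, a lysosomal thiol reductase of antigen-presenting cells, rose by 0.76 ± 0.17 and 0.65 ± 0.17, and Cd274, which encodes PD-L1, fell by 0.93 and 0.97. Ly6e, a surface protein that restricts virus entry, rose in Lip-O mice (0.52 ± 0.15) and Cmpk2, a mitochondrial nucleotide kinase next to Rsad2 in the genome, fell there (-0.69 ± 0.18). Ifitm2, which blocks virus fusion, fell with Lip-C in sham mice (-0.51 ± 0.11, limma adjusted p = 0.0435) and rose after OBX in Lip-C mice (0.55 ± 0.11, limma adjusted p = 0.0100). The median of these 34 genes was -0.20 and -0.21 for Lip-C in sham and OBX mice. For OBX it was 0.30 with empty liposomes and 0.22 with clodronate.

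Markers of several cell types moved with these comparisons, and their part in the results was not tested. For the marker counts here and in the next paragraph, the shares of all genes called were as follows. After OBX 10.7% rose and 8.89% fell in Lip-O mice, and 10.3% rose and 8.86% fell in Lip-C mice. With Lip-C 2.10% were called in sham mice and 0.345% in OBX mice, in either direction. All 12 listed macrophage markers passed the filter. Their summed signal ran from 9525 to 19247 in Lip-O sham, 8506 to 13828 in Lip-C sham, 14441 to 24523 in Lip-O OBX and 13859 to 18813 in Lip-C OBX. Lyz2 (4038 to 10892) gave the largest part of that sum, and Cd14 added 4955 on Lip-O sham 1. With Lip-C in sham mice 2 of 12 fell, with a median of -0.27, and in OBX mice none passed, with a median of -0.28. Csf1r read 2231 to 2589 in Lip-O sham and 1210 to 1474.5 in Lip-C sham, and Aif1 176 to 276 and 102 to 120.5. Both were apart there, while Lyz2 and Msr1 had slightly higher means with Lip-C. After OBX 5 of 12 rose in Lip-O mice and 7 of 12 in Lip-C mice, with medians of 0.54 and 0.63, and none fell. Cd68, a lysosomal protein of macrophages, read 655 to 1312 in the OBX arrays and 307 to 566 in the sham arrays. The class II marker Cd74 read 2812 on Lip-O sham 1 and 5494 on Lip-O OBX 1, and 699 to 1946 on the other 10 arrays. For the 6 of 8 class II and dendritic markers tested, the summed signal ran from 3956 to 7207 in Lip-O sham, 2455.5 to 3626 in Lip-C sham, 3682 to 12294 in Lip-O OBX and 3418 to 6241 in Lip-C OBX. For the 5 of 8 plasmacytoid dendritic markers tested it ran from 6642 to 7950.2, 6003 to 9949, 7316 to 10662 and 7343 to 10669.6 in the same order. Klk1 (2438 to 6483) and Tcf4 (2690.2 to 3806), which other cells also express, gave most of that sum, while Siglech, Ccr9 and Cd209d did not pass the filter. For T and NK cells 3 of 9 markers were tested, and their sum did not exceed 316 on any array.

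After OBX 6 of 7 markers of mature olfactory sensory neurons fell in Lip-O mice and 3 of 7 in Lip-C mice, with medians of -0.83 and -0.45. Fibroblast markers rose after OBX in Lip-C mice for 4 of 6 (median 0.97) and for none in Lip-O mice (median -0.24). Their summed signal was lowest in Lip-C sham (19393 to 26039), the reference of that rise. It ran from 32887 to 54087 in Lip-C OBX, 30447 to 55866 in Lip-O sham and 29339 to 51579 in Lip-O OBX. The medians of the 7 neutrophil markers with Lip-C were 0.49 in sham mice, where 1 fell, and 0.93 in OBX mice, where none passed. Liver transcripts such as Alb summed to 493 to 2169 in Lip-O OBX, against 187 to 341 in Lip-C OBX, 170 to 207 in Lip-O sham and 130 to 209 in Lip-C sham. With Lip-C in OBX mice 1 of 5 liver markers fell, and after OBX in Lip-O mice 4 of 5 rose.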

How the data were processed

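Probe set intensity on a linear scale was taken from the table the authors deposited for 12 arrays. Every array had been scaled to a trimmed mean of 500, as the values show. The algorithm behind these summaries was not given in the sources used here. Groups came from the sample titles.

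Values were log2(signal + 16) with no further scaling. After removal of 64 controls, probe sets entered the analysis when at least 3 arrays were above their own 40th percentile (65.3 to 79.3). For genes with several, the probe set of highest mean stood for the gene. The added 16 makes folds of dim genes too small. Signals are given in place of log2 changes when the mean of either group falls under that percentile.

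All 12 arrays entered a single model of the group means (limma 3.58.1, R 4.3.3). It gave 7 comparisons: Lip-C in sham and in OBX mice, OBX under either liposome, the interaction (OBX change in Lip-C mice minus that in Lip-O mice) and both main effects. Tests were two-sided and adjusted by Benjamini-Hochberg over 13628 genes, at 0.05. The model was checked on simulated data. The number of arrays limits the precision: the median standard error of a change between groups was 0.124 over all genes. Most members had larger standard errors.

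The members and lists were chosen with earlier results of these data known, so no test was run over a list. Genes named were those past the threshold, the 5 with the smallest p in each of the 5 comparisons other than the main effects, the largest change in each role group, and a few fixed names. In the pathway lists the rule took genes past the threshold in a Lip-C comparison and the 3 with the smallest p in each OBX comparison. The genes described on single arrays outside this rule (Gbp3, Cxcl9, Cxcl10, Cd14, Icam1, Socs3, Cd68, Cd74, Csf1r, Aif1, Lyz2, Msr1, Ifit3, Parp14) and the other pathway genes called were chosen after their values were seen.

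Same-numbered arrays deviated together in Lip-O sham and Lip-O OBX (r = 0.135 to 0.311 over 3 pairs) and in Lip-O sham and Lip-C sham (0.100 to 0.327). Every such pair exceeded 0.1, but no label pairs the arrays. Lip-O sham 3 correlated more with Lip-C sham 2 (r = 0.180) and Lip-O OBX 2 (0.164) than with its same-numbered arrays (0.100 and 0.135). The main model therefore held no pairing, and a replicate block was fitted only as an alternative.

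Alternatives were quantile normalization, median centring, pseudocounts of 1 and 64, no filter and a stricter one (60th percentile), averaging probe sets per gene, a replicate block, array weights, pairwise fits, leaving out each array, and, added after seeing the data, leaving out both Lip-O arrays numbered 1. Promoter windows are from RefSeq (GRCm38) and were matched by symbol.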

Additional observations from a re-analysis of the deposited data

Results flagged for a closer look

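For 4 members, OBX moved every array away from its own sham mean in 1 direction in Lip-O mice and in the other in Lip-C mice. The interaction was tested by limma and none passed. It was -1.31 for Mx1 (adjusted p = 0.186), -0.94 for Ifit3 (0.596), -0.81 for Irf7 (0.471) and -0.48 for Oas1a (0.515). Mx1 also moved in opposite directions with Lip-C, upward in sham and downward in OBX mice, which is the same difference of -1.31. Without 1 array at a time it ran from -1.77 to -1.08 for Mx1, from -1.23 to -0.44 for Irf7 and from -0.74 to -0.27 for Oas1a. The comparisons share their control arrays.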

How the results depend on the processing

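Of 1018 values of 45 named pairs of gene and comparison under 23 alternatives, 978 kept their direction and their side of the threshold. Most of the 45 pairs were not called in the main fit, so most of the 978 values only stayed uncalled. In 23 of the 1018 values a call was lost, mostly for Ifit1 and Ifi35 in Lip-C mice and Ifit2 in Lip-O mice after OBX. In 9 a call was gained, and in 8 the sign turned, with the cause not tested. Ddx58 after OBX in Lip-C mice was 0.044 as the mean of its probe sets, and Dhx58 after OBX in Lip-O mice was -0.23 with no filter. For Lip-C in sham mice, Psmb8 was 0.13 without Lip-O sham replicate 1 and without both Lip-O arrays numbered 1, and Usp18 was 0.062 with array weights, 0.32 without Lip-O sham replicate 1 or both arrays and 0.32 without Lip-C sham replicate 2. Leaving out 1 array, they ran down to -0.74 and -0.46.

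Counts moved by over 1.5 times as follows. With no filter, genes called were 56 for Lip-C in sham mice, 1736 for OBX in Lip-C mice (1 member), 1 for the interaction and 106 for Lip-C in all mice. With the stricter filter they were 548 and 72 for Lip-C in sham and OBX mice and 85 for the interaction. With array weights they were 1262 for Lip-C in sham mice, 4058 for OBX in Lip-C mice, 30 for the interaction and 351 for Lip-C in all mice. Members called for OBX in all mice were then 7 of 35. The share of all genes called in that fit is not given here, and the 32.7% of the main fit is not its background. Pairwise fits gave 79, 2 and 1574 for Lip-C in sham mice, Lip-C in OBX mice and OBX in Lip-O mice. Without both Lip-O arrays numbered 1 these were 98, 5 and 779, with 64 for Lip-C in all mice. That fit gave 13 negative changes for Lip-C in sham mice and 4 for OBX in Lip-O mice. It called 6 of 35 members for OBX under Lip-C (18.5% of all genes) and 8 of 35 for OBX in all mice (23.3%).

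Leaving out 1 array at a time, genes called ran from 17 to 314 and 7 to 76 for Lip-C in sham and OBX mice, 1403 to 2793 for OBX under Lip-O, 838 to 3030 for OBX under Lip-C, 0 to 155 for the interaction, 84 to 258 for Lip-C in all mice and 3466 to 4679 for OBX in all mice. The share of all genes called for OBX ran from 10.3% to 20.5% in Lip-O mice, 6.15% to 22.2% in Lip-C mice and 25.4% to 34.3% in all mice. Members called, of 35, ran from 1 to 3, 1 to 7 and 4 to 11 in the same order, and stayed 0 elsewhere. Their median ran from -0.39 to 0.14, -0.53 to -0.26, 0.082 to 0.68, -0.10 to 0.22, -0.49 to -0.012, -0.37 to -0.12 and 0.048 to 0.29 in the order of Lip-C in sham and OBX mice, OBX in Lip-O mice, OBX in Lip-C mice, interaction, Lip-C in all mice and OBX in all mice. Negative changes ran from 13 to 30, 28 to 34, 2 to 16, 7 to 19 and 18 to 33 in the order of the first 5.

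Median centring moved the share of called genes that were higher from 53.8% to 31.9% for OBX in Lip-C mice, from 48.4% to 35.1% for Lip-C in all mice and from 58.6% to 43.2% for OBX in all mice. The module's median for OBX in Lip-C mice was then 0.01. The titles give replicate numbers but no shared litter or day, and over all groups same-numbered arrays deviated at r = -0.03 to 0.33 (18 pairs) and others at -0.33 to 0.18 (36 pairs). The replicate block gave 2971 genes for OBX under Lip-O, 2997 for OBX under Lip-C, and 329 and 45 for Lip-C in sham and OBX mice. For OBX in all mice it called 4774 of 13628 genes and 6 of 35 members, adding Irgm1 and Isg20 to the 4. It changed no other call of a member. Ddx58 after OBX in Lip-C mice gained a call with median centring, a pseudocount of 64, the stricter filter and array weights. It also gained a call without Lip-O sham replicate 1.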
